A study of Arabidopsis thaliana with 18 samples.

Results

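The stem cell genes described here were 9 genes of the WUSCHEL and CLAVATA pathway, of 27432 nuclear protein-coding genes in the gene table. They were chosen by name: WUS (AT2G17950), WOX1 (AT3G18010), WOX2 (AT5G59340), WOX3, also named PRS (AT2G28610), WOX4 (AT1G46480), WOX5 (AT3G11260), CLV1 (AT1G75820), CLV2 (AT1G65380) and CLV3 (AT2G27250). Each gene was given, for each histone mark, the deposited peak that covered most of its gene body with at least 150 bp. By this rule 7 of the 9 genes had an H3K27me3 peak and 3 had an H3K4me3 peak.

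The samples were apices enriched for the shoot meristem, from Arabidopsis thaliana plants kept for 5 weeks in short days of 8 h light and 16 h dark at 21 °C. From wild type and chr4 mutant plants, chromatin bound by antibodies to H3K27me3, to H3K4me3 or to histone H3 was sequenced, with 3 biological replicates in each of 6 groups. CHR4 (PKR1 in the series title) remodels chromatin, and the labels name neither the mutant allele nor the accession. The 2 deposited tables hold 1 value per peak for a pool named control and 1 for a pool named treat. They name no genotype for either pool, so every difference below compares treat with control, and no difference has a replicate error. The tables measure chromatin marks and not transcripts, so the tissue label was not checked with expressed markers. In such a tissue a lower signal in every cell and a mark present in fewer cells cannot be told apart.

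In the shoot apex, WUS is made in the small organising centre below the stem cells and keeps those stem cells undifferentiated. The stem cells secrete the CLV3 peptide, which acts through receptors such as CLV1 and CLV2 to hold WUS back. WOX genes encode homeodomain transcription factors related to WUS that act in other places, such as the embryo, the leaf margin, the vascular cambium and the root tip. H3K27me3 is set by Polycomb complexes and marks genes kept silent, whereas H3K4me3 is found at the start of active genes.

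Among these 9 genes, H3K27me3 peaks set the receptor genes apart from the rest. This is not a rule by the role of the product. In the lists below, the transcription factor genes WOX13 and HAM1 to HAM4 and the ligand genes CLE16 and CLE20 had H3K4me3 only. WUS, all 5 WOX genes and the ligand gene CLV3 lay under H3K27me3, and the receptor genes CLV1 and CLV2 did not. CLV1 and CLV2 carried H3K4me3 peaks of above-median height instead. The only other H3K4me3 peak was a short, low one inside WOX1, which made WOX1 the 1 member with a peak of each mark. That peak was lost when peaks with little signal in both pools were left out, and also when 50% of the gene body had to be covered. Among all protein-coding genes, 24.7% had an H3K27me3 peak and 58.4% an H3K4me3 peak. A peak of each mark was found at 920 genes, which is 13.6% of the genes with H3K27me3.

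**Figure D1:**
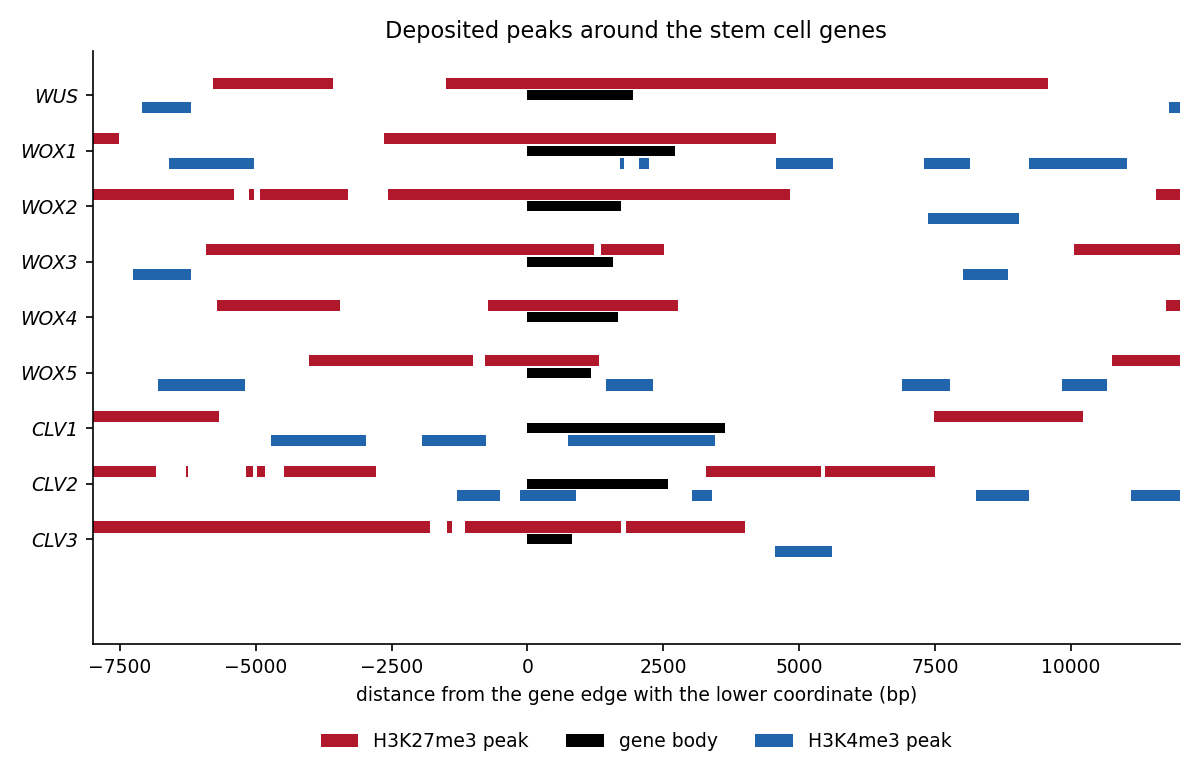
Deposited H3K27me3 peaks (red, above), gene bodies (black) and deposited H3K4me3 peaks (blue, below) around each of the 9 genes, with distance in bp from the gene edge that has the lower coordinate. The x axis does not follow the direction of transcription, because the gene table gives no strand. Red bars cover WUS, WOX1 to WOX5 and CLV3, and blue bars cover parts of CLV1, CLV2 and WOX1.

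The H3K27me3 peak of WUS was the longest of the 7. It spanned chr2:7807380-7818440 (TAIR10, coordinates as deposited), a length of 11060 bp, and it covered 100% of the gene body. It reached 1491 bp past the gene on the side of lower coordinates and 7629 bp on the other side, where it also held 749 bp of AT2G17960. Total signal, a deposited score without a stated unit, was 42758 in the control and 37629 in the treat pool. The height of the peak, a second deposited score, was 14177 and 10642. WUS was thus 1.14-fold lower in the treat pool by total signal and 1.33-fold lower by height, and the FDR for total signal was 0.548 in the authors' deposited table.

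Genes of the leaf and flower margin are described next, in no order of rank. WOX1, which acts with WOX3 in the outgrowth of the leaf blade, lay in a peak of 7210 bp (chr3:6158090-6165300) that covered the whole gene body. Its total signal was 43847 in the control and 35137 in the treat pool, which is 1.25-fold lower. WOX3, known as PRESSED FLOWER for its role at organ margins, lay mostly in a peak of 7130 bp (chr2:12256100-12263230) that covered 76.9% of the gene body. A second peak of 1160 bp, from 12263360 to 12264520, covered another 235 bp of the gene and was not used under the rule. The larger WOX3 peak had a total signal of 48375 in the control and 39570 in the treat pool, 1.22-fold lower. Its height was 12354 and 8663, 1.43-fold lower. In the authors' deposited table the FDR for total signal was 0.329 at WOX1 and 0.348 at WOX3. At both genes the treat pool was the lower one by either score.

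WOX2, which acts in the apical cells of the early embryo, gave nearly equal pools. Its peak of 7390 bp (chr5:23930770-23938160) also held 757 bp of AT5G59330, and its total signal was 37787 in the control and 37669 in the treat pool. The height was 9653 and 10012, so that the sign of this small difference depended on the score. The FDR for total signal at WOX2 was 0.987 in the authors' deposited table.

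WOX4, a regulator of the vascular cambium, had the largest difference of the 7 genes. Its peak of 3500 bp (chr1:17235790-17239290) had a total signal of 45963 in the control and 31885 in the treat pool, which is 1.44-fold lower. Height was 10634 and 7224, a 1.47-fold difference. Both differences stayed below the 1.5-fold limit used for calls, and the FDR for total signal in the authors' deposited table, 0.144, was the lowest among the H3K27me3 peaks of the 9 genes. WOX4 also had no H3K4me3 peak nearby: the closest one lay 10154 bp from the gene.

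WOX5, which keeps the stem cells around the root quiescent centre and is the root counterpart of WUS, was the one gene with more total signal in the treat pool. Its peak was the shortest and lowest of the 7, with 2100 bp (chr3:3526500-3528600), a total signal of 28834 in the control and 31456 in the treat pool, and heights of 6447 and 6742. The 1.09-fold difference had an FDR in the authors' deposited table of 0.718. The peak was listed as 1670 bp wide in the control and 2070 bp in the treat pool. WUS was also listed as wider in the treat pool, with 10660 bp and 10850 bp, and the other 5 genes as narrower. An H3K4me3 peak of 870 bp lay 280 bp from WOX5 (chr3:3528720-3529590), and its total signal was 21180 in the control and 19359 in the treat pool.

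CLV3, which encodes the secreted signal peptide of the pathway, lay in the middle of a row of H3K27me3 peaks. The peak on the gene had 2880 bp (chr2:11663820-11666700) and covered the whole of this short gene. Total signal was 43600 in the control and 32417 in the treat pool, which is 1.34-fold lower, and height was 9822 and 7700, 1.28-fold lower. The FDR for total signal was 0.219 in the authors' deposited table. By total signal only WOX4 of the 7 genes had a larger difference, whereas by height WOX4, WOX3 and WUS did.

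**Figure D2:**
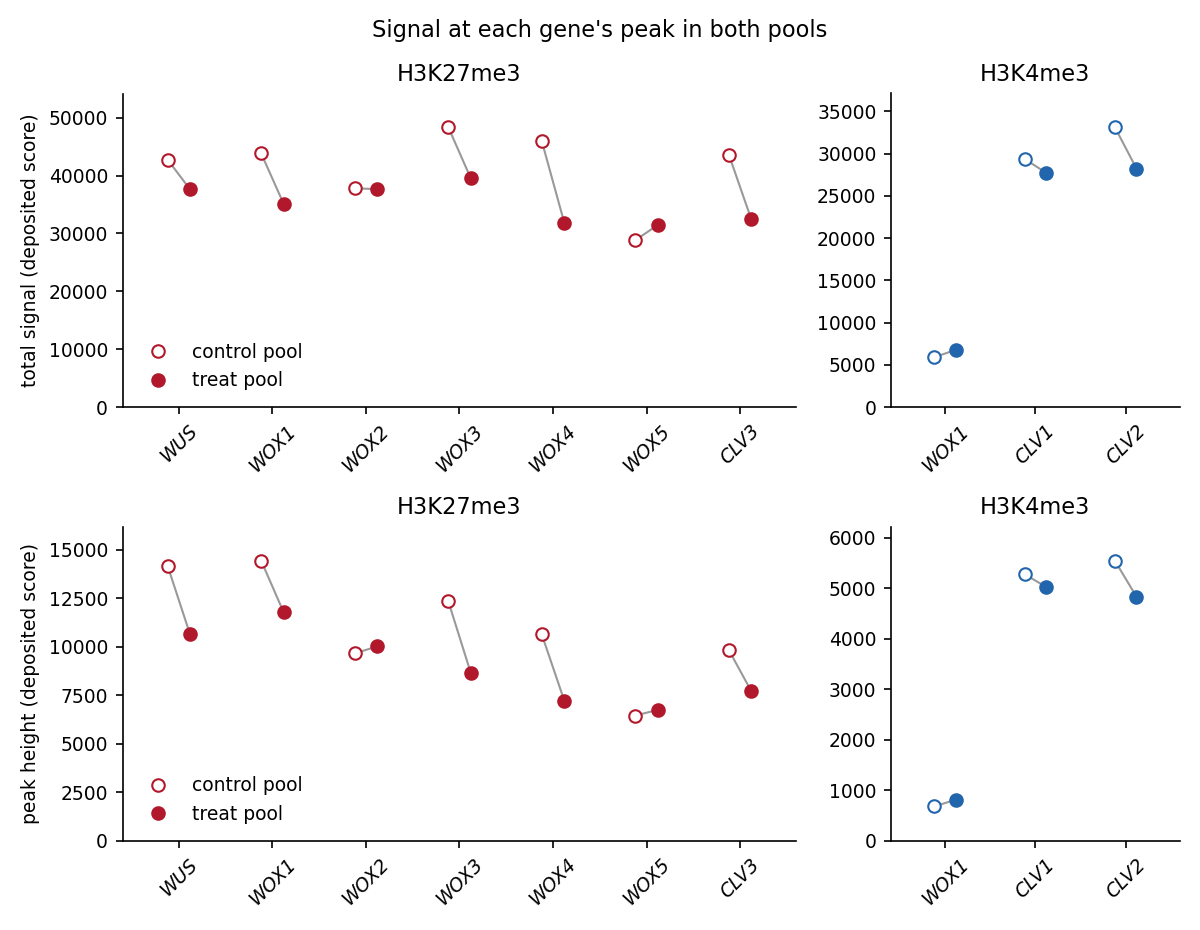
Total signal (upper panels) and peak height (lower panels), both deposited scores without a stated unit, at each gene's H3K27me3 peak (left) and H3K4me3 peak (right). Open circles are the control pool and filled circles the treat pool, 1 value each, with no error because each is a pool. The H3K27me3 lines slope down for WUS, WOX1, WOX3, WOX4 and CLV3, whereas those of WOX2 and WOX5 are nearly flat, and WOX1 is far below CLV1 and CLV2 in H3K4me3.

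A peak was called different when the FDR for total signal in the authors' deposited table was below 0.05 and its total signal differed by 1.5-fold or more. By this rule 0 of 7 stem cell genes were called in H3K27me3, beside a background of 4.12% of the 6770 protein-coding genes that had one. By direction, 2.95% of those genes were called lower and 1.17% higher in the treat pool. No member had an FDR below 0.05 for total signal or for height, whose lowest value was 0.102 at WOX4 in the authors' deposited table. With a background this low, a count of 0 among 7 genes is not a result about them.

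Without a call, 6 of the 7 genes had the lower H3K27me3 total signal in the treat pool, and so did 73.0% of all genes with a peak. WOX2 was the least firm of the 6, since its ratio turned above 0 by height and when the median of nuclear peaks, -0.14, was set to 0. Over the 7 genes the log2 ratio (treat over control) had a median of -0.29 and a range from -0.53 at WOX4 to 0.13 at WOX5. It was -0.18 over all 6770 genes, whose quartiles were -0.37 and 0.02. WUS, at -0.18, stood at the 49.2 percentile of that distribution, in the middle. WOX4 stood at percentile 14.4, CLV3 at 19.7, WOX1 at 29.7, WOX3 at 33.4, WOX2 at 72.7 and WOX5 at 82.0. WOX4 and CLV3 were thus the members below the lower quartile, and WOX5 the one above the upper quartile. Genes with tall peaks tended to be lower in the treat pool: of the 2602 genes whose peak was at least as high as that of WOX5, 91.8% were lower, with a median of -0.22. The share of members that were lower therefore resembled that of other genes with tall peaks.

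**Figure D3:**
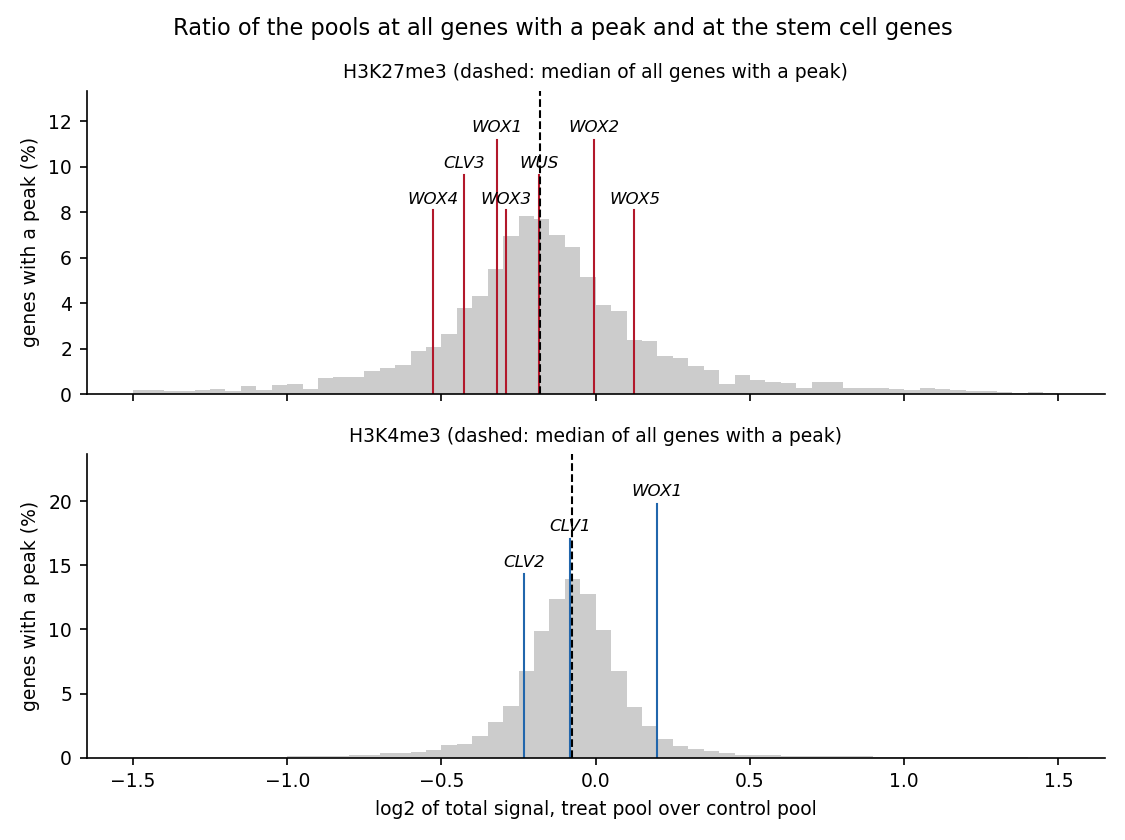
Distribution of the log2 ratio of total signal, treat pool over control pool, over all protein-coding genes with an H3K27me3 peak (upper) or an H3K4me3 peak (lower), as percent of genes per bin, with the stem cell genes as coloured lines and the median of all genes dashed. The x axis shows ratios from -1.5 to 1.5, which hold 94.9% and 98.8% of the genes. WUS and CLV1 fall next to the medians, and WOX4, CLV3 and WOX5 lie outside the quartiles of the H3K27me3 genes.

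Levels were compared between genes by height, 1 deposited value per peak and pool; what either score adds up is not stated. By mean height over both pools, the order of H3K27me3 was WOX1 (13111), WUS (12410), WOX3 (10509), WOX2 (9833), WOX4 (8929), CLV3 (8761) and WOX5 (6594). All 7 were above the median of 4959 over genes with a peak, from percentile 61.6 for WOX5 to 91.4 for WOX1. The steps between neighbours in this order could not be set against a spread. Over the pools themselves the order was not stable: in the control pool WOX4 was higher than WOX2 and CLV3, and in the treat pool it was lower than both. The median peak length was 7130 bp for the 7 genes and 2370 bp for all genes with an H3K27me3 peak. WUS stood at percentile 95.3 of peak length, WOX1, WOX2 and WOX3 at 88.1 to 89.0, WOX4 at 65.0, CLV3 at 57.3 and WOX5 at 45.2.

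**Figure D4:**
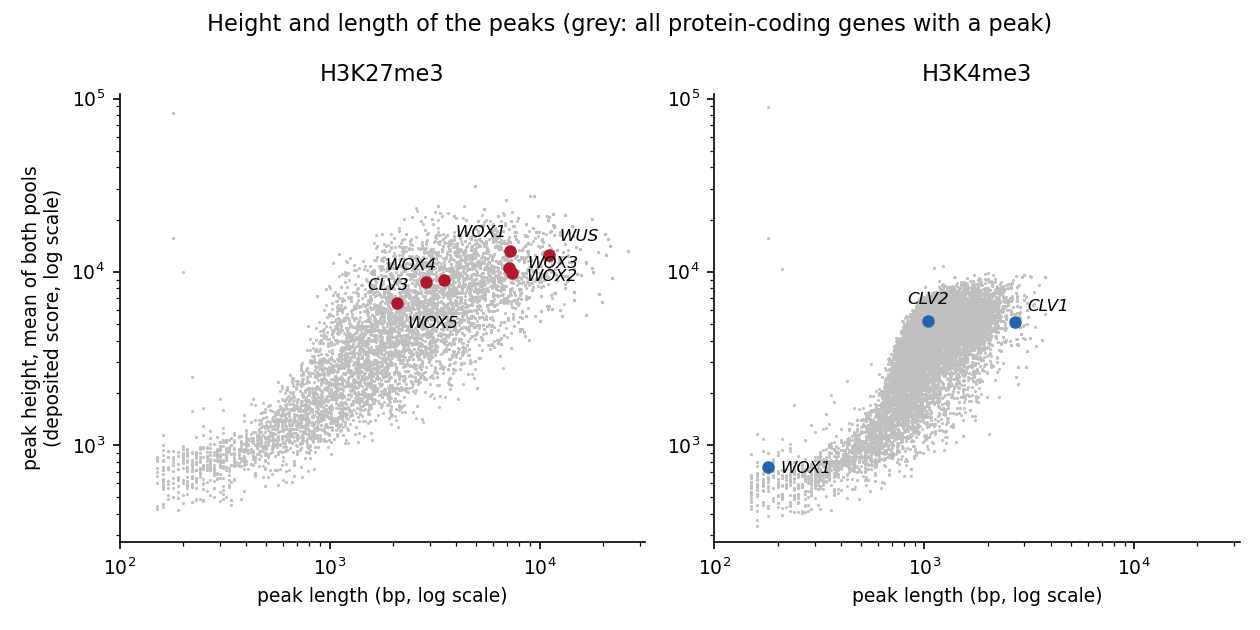
Peak length in bp against mean peak height of both pools (deposited score), both on log scales, for all protein-coding genes with an H3K27me3 peak (left) or an H3K4me3 peak (right) in grey and the stem cell genes in colour. WUS, WOX1, WOX2 and WOX3 sit among long and tall H3K27me3 peaks, CLV1 lies at the long end of the H3K4me3 peaks, and the WOX1 H3K4me3 peak lies at the short and low end.

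The genes most like WUS in H3K27me3 were sought by distance over the log2 total signals of the 2 pools and log2 peak length. LOG9, of the family of cytokinin-activating enzymes, was nearest at a distance of 0.03, with 42245 in the control pool, 38114 in the treat pool and 11090 bp. The transcription factor gene WRKY8 and the potassium channel gene KCO3 followed at a distance of 0.09, and they share 1 peak of 11450 bp with 44845 and 37869. With 3 numbers per gene this likeness describes the peak only.

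In H3K4me3 the receptor genes stood apart from the others. CLV1 encodes a receptor kinase that binds CLV3, and its H3K4me3 peak of 2700 bp (chr1:28464090-28466790) covered 74.4% of the gene body and stood at percentile 99.5 of peak length. Total signal at CLV1 was 29363 in the control and 27710 in the treat pool, which is 1.06-fold lower, and height was 5281 and 5024. CLV2 encodes a receptor-like protein without a kinase domain that acts with the pseudokinase CRN. Its peak of 1040 bp (chr1:24286600-24287640) covered 34.7% of the gene body, at the side of lower coordinates. Total signal at CLV2 was 33131 in the control and 28227 in the treat pool, which is 1.17-fold lower, and height was 5549 and 4834. By mean height CLV2 (5192) and CLV1 (5153) were close together, at percentiles 73.8 and 73.0 of genes with an H3K4me3 peak, although CLV1's peak was the longer one.

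The H3K4me3 peak counted for WOX1 was of another kind. It was 180 bp long (chr3:6162780-6162960), lay inside the H3K27me3 peak and met the overlap rule by a small margin, while a second peak of 70 bp on the same gene did not meet it. Its total signal was 5902 in the control and 6772 in the treat pool. Its height was 678 and 811, at percentile 2.46 of genes with an H3K4me3 peak. The remaining 6 genes had no H3K4me3 peak under the rule. The distance to the nearest one was 280 bp for WOX5, 3733 bp for CLV3, 5660 bp for WOX2, 6183 bp for WOX3, 6191 bp for WUS and 10154 bp for WOX4.

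None of the 3 genes was called in H3K4me3, where 3.54% of 16032 genes with a peak were called, 2.35% lower and 1.19% higher in the treat pool. The FDR for total signal was 0.149 at CLV2, 0.544 at WOX1 and 0.584 at CLV1 in the authors' deposited table. The log2 ratios were -0.23 at CLV2, -0.08 at CLV1 and 0.20 at WOX1, beside a median of -0.08 over all genes with a peak. CLV1 was at percentile 48.3, CLV2 at 17.1 and WOX1, whose peak is low, at 93.5.

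The tables also give an FDR for the strongest local loss and the strongest local gain inside each peak. In the authors' deposited table the CLV1 H3K4me3 peak had a local loss FDR of 0.0129, and its width was listed as 2700 bp in the control and 2450 bp in the treat pool. Across all genes with an H3K4me3 peak, 31.1% had a local loss FDR below 0.05 and 43.3% a local loss or gain FDR below 0.05, so 1 of 3 is close to the background. In H3K27me3 0 of 7 genes had a local loss FDR or a local gain FDR below 0.05, beside 17.2% of all genes for a loss and 26.3% for either. The median local loss FDR of all genes with an H3K27me3 peak was 0.147 in the authors' deposited table, and 5 of the 7 genes lay between that and 0.05. Their local loss FDR in the authors' deposited table was 0.0565 at CLV3, 0.0612 at WUS, 0.0722 at WOX3, 0.0733 at WOX4 and 0.0761 at WOX1. As many of all genes lay below that median as above it, and those below it include the 17.2% with a local loss FDR below 0.05. No test compared the 5 of 7 with the share of all genes in that range, so it is not read as a result about these genes.

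Peaks within 2000 bp of a gene body, other than the gene's own, were examined after the values had been seen. There were 6 for H3K27me3 and 6 for H3K4me3, and 1 of each was called, where 8.53% of all H3K27me3 peaks and 5.98% of all H3K4me3 peaks were called. The first lay 1388 bp from CLV3. This H3K27me3 peak of 100 bp (chr2:11663490-11663590) had a total signal of 8331 in the control and 26.1 in the treat pool, with an FDR in the authors' deposited table of 0.0085. The peak was weak, with heights of 816 and 12.2. Even in its higher pool, it lay below the lower quartile of 9036 for the total signal of H3K27me3 peaks. It filled part of the gap between the CLV3 peak and the 7860 bp peak on its other side, which had 39962 in the control and 33212 in the treat pool. A further peak of 2190 bp on the other flank of CLV3 had 22223 and 15491, a 1.43-fold difference that was not called. The control pool had more H3K27me3 in all 4 peaks at CLV3, of which the smallest was the one called. Across all genes with an H3K27me3 peak, 73.0% were lower in the treat pool too, so this shared direction is not a result about CLV3.

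The second called flank lay 441 bp from CLV2. This H3K4me3 peak of 360 bp (chr1:24289770-24290130) had a total signal of 8859 in the control and 721 in the treat pool, which is 12.3-fold lower with an FDR in the authors' deposited table of 0.0013. Its height was 1139 and 147, well below that of the peak on CLV2. Even in its higher pool, the peak lay below the lower quartile of 16710 for the total signal of H3K4me3 peaks. It overlapped the edge of an H3K27me3 peak that began 691 bp from CLV2 (chr1:24290020-24292140) and in which the pools were equal, at 40213 and 40176. CLV2 itself thus lay between H3K27me3 peaks but under none.

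The wider pathway was described with lists of genes chosen by name. Among the other WOX genes, 6 of 9 had an H3K27me3 peak and 0 were called in either direction. WOX9 and WOX11, a regulator of embryo and meristem growth and one of root founder cells, had log2 ratios of -0.29 each. At the other end were WOX12, which acts with WOX11, at -0.18 and WOX8, an embryo gene, at 0.11. The median of -0.26 was close to that of the 7 stem cell genes. WOX13, a widely expressed member of an older branch of the family, was the 1 gene of this list with an H3K4me3 peak, at 29843 in the control and 27976 in the treat pool. WOX9, with heights of 20182 and 13817, and WOX11, with 19818 and 13718, had taller H3K27me3 peaks than any of the 7. The height FDR at WOX9 was 0.0468 in the authors' deposited table, with a height difference of 1.46-fold, below the limit.

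Of 30 CLE genes, which encode peptides related to CLV3, 21 had an H3K27me3 peak and 7 an H3K4me3 peak. These 21 genes lay on 19 peaks, because CLE4 and CLE7 share 1 and CLE5 and CLE6 share another. One was called lower and 0 higher in H3K27me3, beside the 2.95% and 1.17% of all genes. CLE13 had a total signal of 25227 in the control and 6059 in the treat pool, which is 4.16-fold lower, and heights of 4507 and 1272. The FDR for total signal at CLE13 was 0.0044 in the authors' deposited table. In H3K4me3 0 of 7 were called, and the ratios spread widely. CLE42 and CLE17 had log2 ratios of 0.82 and 0.75, and CLE41, which encodes the cambium signal TDIF, and CLE16 had -0.47 and -0.40. All of these peaks were below the median height of 4244 over genes with an H3K4me3 peak. CLE42 and CLE17 were the weakest, with heights of 574 and 771 in the control pool, so their ratios rest on small peaks. A peak of each mark was found at 5 CLE genes (CLE17, CLE41, CLE42, CLE43 and CLE44), and at all 5 the peaks overlapped.

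The receptors and their partners showed the reverse makeup. All 9 genes kept on this list had an H3K4me3 peak and 0 had an H3K27me3 peak. For BAM3 this rests on a short, low peak with nearly all its signal in the control pool. Like the H3K4me3 peak of WOX1, it was lost when peaks with little signal in both pools were left out. CRN, BAM1, BAM2, BAM3, RPK2, PXY and ACR4 encode receptor kinases or related proteins, and POL and PLL1 encode phosphatases downstream of the receptors. CLV1 and CLV2 shared this makeup of marks. CIK1 to CIK4 had also been listed but were dropped because the gene table lacks those names, so their marks were not examined. BAM3, a receptor kinase of the root phloem, was called lower, beside 2.35% of all genes. It had a total signal of 6956 in the control and 26.0 in the treat pool, with an FDR in the authors' deposited table of 0.0014. This peak was 260 bp long (chr4:10950900-10951160), with a height of 792 and 35.9, so the ratio rests on a small peak. The median log2 ratio of the 9 genes was -0.17, beside -0.08 over all genes.

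Partners of WUS gave a similar picture. HAM1 to HAM4, transcription factors that act with WUS, and the corepressor gene TPL had H3K4me3 peaks and no H3K27me3 peak. STM, a homeobox gene that keeps the meristem undifferentiated, had both: an H3K27me3 peak of 13640 bp with 69598 in the control and 53913 in the treat pool, and an overlapping H3K4me3 peak of 310 bp with 7386 and 5998. None of the 6 was called in either mark by total signal. By height, an alternative added after seeing the data, STM was called lower in H3K27me3, with heights of 16096 and 10570, a 1.52-fold difference just past the limit, and a height FDR of 0.0494 in the authors' deposited table. All 6 H3K4me3 log2 ratios were below 0, as were those of 70.5% of all genes with a peak, from -0.30 at STM and -0.19 at HAM3 to -0.07 at HAM1 and -0.01 at HAM4. The last 2 lie above the median of -0.08 over all genes. The STM H3K27me3 ratio was -0.37. STM thus resembled WOX1, with a long H3K27me3 peak and a short, low H3K4me3 peak within it.

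**Figure D5:**
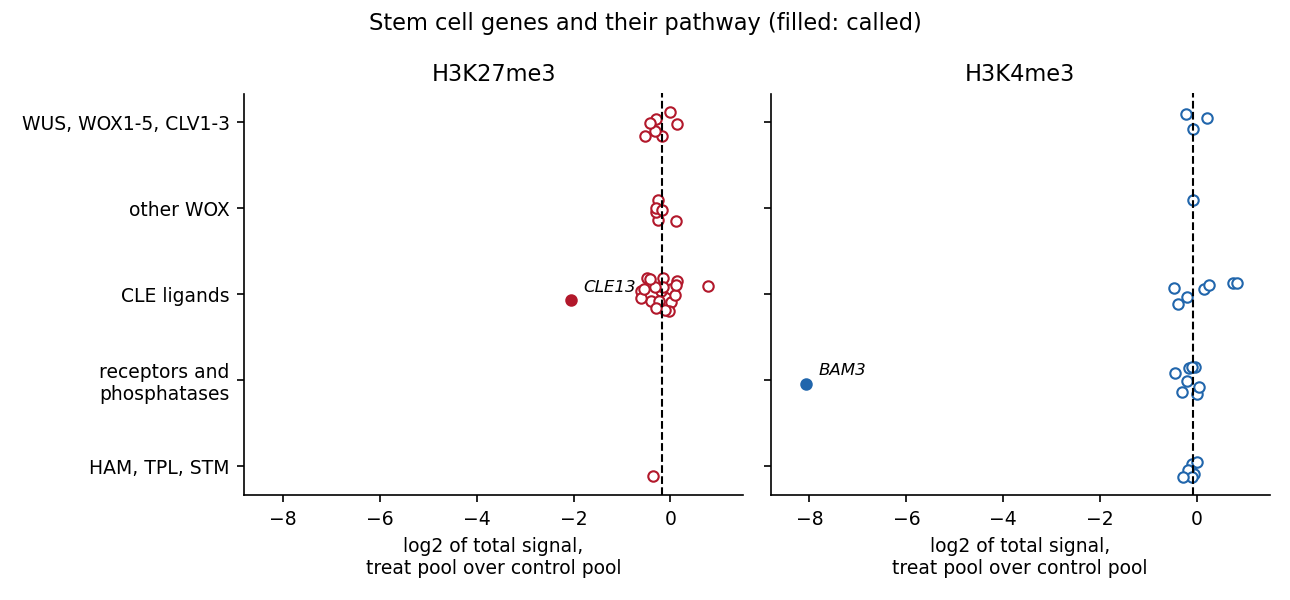
Log2 ratio of total signal, treat pool over control pool, for each gene with an H3K27me3 peak (left) or H3K4me3 peak (right), by list: the 9 stem cell genes, other WOX genes, CLE ligands, receptors with phosphatases, and HAM, TPL and STM. Each circle is 1 gene, filled where called, with the median of all genes with a peak dashed, and vertical offsets within a list carry no meaning. CLE13 and BAM3 are the filled circles, and the receptor row is empty in H3K27me3.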

How the data were processed

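ChIP-seq of H3K27me3, H3K4me3 and H3 was made in 18 samples. Per the submitters' processing notes, Bowtie and TAIR10 were used; peak caller and normalization are not given in the sources used here. Total signal and height are scores that the authors deposited without a unit, 1 per pool, so library depth is unknown. How the pools were weighted is unknown too. The authors also deposited log2 ratios, which equal the log2 of the pools' total signals with a signal of 0 set to 1. The FDR values, read as the authors' p-value-type column, were used as deposited, and how they were computed is not given. Peak starts, ends and widths are other values, in bp, per the file headers.

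From these, peaks were linked to genes of a TAIR10.1 gene table, whose coordinates are not printed, in Python 3.11.15 with pandas 2.3.3. As a check of the builds, 58.4% of genes took an H3K4me3 peak, and 41.1% when genes were shifted by 20000 bp. The linking code was checked against a direct overlap search on randomly drawn genes. The calling code was run on peaks whose differences and FDR had been set by hand, which checks the code and not the calls. Of 59 listed pathway genes, 5 (CLE46 and CIK1 to CIK4) were dropped because the gene table lacks the name used. Members, lists and rules were chosen with earlier results of these data known. All 9 members were named, then called genes of each list or else those with the 2 highest and 2 lowest ratios, and the 3 genes most like WUS. Alternatives changed the score, thresholds, centring, gene link and a filter on signal. The H3 samples were not analysed here.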

Additional observations from a re-analysis of the deposited data

How the results depend on the processing

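The call counts of 0 for both marks did not change with peak height or with 500 bp added on both sides. They were also 0 under settings that could not have raised them. An overlap of 1 bp added no peak, because no member that lacked a peak of a mark touched one. An FDR under 0.001, a 2-fold limit, 50% of the gene body, a filter on the higher pool and each peak counted once only take calls or peaks away. No fold limit and recentring keep the FDR for total signal in the authors' deposited table, whose lowest value among the members was 0.144 at WOX4. With the FDR of a local loss or gain, chosen after seeing the data, 1 H3K4me3 gene was called, namely CLV1. Among all genes with an H3K4me3 peak, 43.3% met that rule, so this is not a result about CLV1. Asking for 50% of the gene body left 1 gene with an H3K4me3 peak, by the construction of that rule. Recentring on nuclear peaks moved the H3K27me3 median of the members to -0.15. The sign of the WOX2 H3K27me3 log2 ratio turned to 0.053 with peak height and to 0.14 with recentring. Peak height and recentring gave 20 values of single members, of which these 2 turned; the other settings leave a member's ratio as it was unless they change its peak. With 500 bp added, WOX5 gained an H3K4me3 peak, with a log2 ratio of -0.13. CLE13 and BAM3 were not called at an FDR under 0.001, and the BAM3 and WOX1 H3K4me3 peaks dropped out with 50% of the gene body and with the filter on signal. No paired analysis was possible because the tables hold only pooled values, so leaving out a replicate could not be done either.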
